A study of Mus musculus with 6 samples.

Results

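Wnt signalling was examined in epididymal adipocytes through 10 genes: the secreted antagonists Sfrp1, Sfrp2, Sfrp4, Sfrp5 and Dkk3, the receptors Fzd1 and Fzd4, the nuclear partner Tcf7l2, the signal carrier Ctnnb1 and the feedback inhibitor Axin2. They were chosen by name, as the rows of the count table whose Ensembl identifier carries one of these symbols, and all 10 were found among 35122 genes. All 10 passed the filter on low counts, together with 13925 genes in all. RNA-sequencing had been done on male C57BL/6 mice on a chow diet, labelled as aged 10 to 11 months. The control group was 3 mice in which both copies of the PU.1 gene, Spi1, carry loxP sites (PU.1 fl/fl). The aPU.1KO group was 3 mice with the same floxed gene and a Cre recombinase driven by the adiponectin promoter (AdipoqCre PU.1 fl/fl), so that both groups carry the floxed allele and recombination is directed to adipocytes. Each library came from 1 mouse. RNA was taken from the floating layer of collagenase-digested fat pads, and the comparison asked how these genes differ when adipocytes lack PU.1, a transcription factor of the ETS family best known for its role in myeloid cells.

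Wnt proteins are secreted ligands that bind Frizzled receptors together with LRP coreceptors. In the canonical branch this stops the destruction of beta-catenin, which then enters the nucleus and acts with TCF/LEF factors on target genes such as Axin2. SFRP proteins carry a Frizzled-like domain and bind Wnts outside the cell. In fat, Wnt signalling through beta-catenin is known for holding back the conversion of precursors into adipocytes, while Sfrp5 is known as a factor secreted by adipocytes that opposes Wnt5a.

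RefSeq promoter windows, on GRCm38.p6 and each running from 250 bases before to 50 bases after a transcription start, were at hand for 7 of the 10 genes, in 9 windows. Those of Tcf7l2 are shown because it was the member with the smallest p in the genotype comparison, that of Axin2 because it is the pathway's feedback target, that of Sfrp5 because it is the member with the highest mean level for its length in control mice, and that of Fzd1 because it held the only match to a searched motif. All are written 5′ to 3′ on the strand of the gene, and capitals mark a motif match.
Tcf7l2, start of the full-length transcripts, chr19:55741560-55741859, plus strand: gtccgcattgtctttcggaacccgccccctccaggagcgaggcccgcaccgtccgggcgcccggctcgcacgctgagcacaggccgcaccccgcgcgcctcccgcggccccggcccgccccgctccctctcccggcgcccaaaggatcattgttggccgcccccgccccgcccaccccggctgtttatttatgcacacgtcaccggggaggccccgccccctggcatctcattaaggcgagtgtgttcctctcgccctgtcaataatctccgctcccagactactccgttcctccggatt
Tcf7l2, internal start, chr19:55895071-55895370, plus strand: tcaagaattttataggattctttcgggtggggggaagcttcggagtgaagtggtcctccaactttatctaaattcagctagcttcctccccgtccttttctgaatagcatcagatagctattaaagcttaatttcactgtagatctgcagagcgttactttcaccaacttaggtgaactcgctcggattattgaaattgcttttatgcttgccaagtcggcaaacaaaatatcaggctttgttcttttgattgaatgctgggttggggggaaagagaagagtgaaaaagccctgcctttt
Axin2, chr11:108920099-108920398, plus strand: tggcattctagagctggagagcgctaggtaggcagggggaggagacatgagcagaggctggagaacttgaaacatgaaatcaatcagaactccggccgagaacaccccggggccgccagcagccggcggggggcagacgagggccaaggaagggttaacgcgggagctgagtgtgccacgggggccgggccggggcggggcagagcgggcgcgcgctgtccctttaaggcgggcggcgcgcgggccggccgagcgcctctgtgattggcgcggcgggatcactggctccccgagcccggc
Sfrp5, chr19:42202203-42202502, minus strand: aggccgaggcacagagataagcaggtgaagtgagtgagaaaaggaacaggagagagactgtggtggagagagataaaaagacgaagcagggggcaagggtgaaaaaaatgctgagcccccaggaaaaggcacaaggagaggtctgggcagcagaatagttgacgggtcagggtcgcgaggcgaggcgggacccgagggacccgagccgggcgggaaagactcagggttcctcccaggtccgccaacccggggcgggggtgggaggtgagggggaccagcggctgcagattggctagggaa
Fzd1, chr5:4758167-4758466, minus strand: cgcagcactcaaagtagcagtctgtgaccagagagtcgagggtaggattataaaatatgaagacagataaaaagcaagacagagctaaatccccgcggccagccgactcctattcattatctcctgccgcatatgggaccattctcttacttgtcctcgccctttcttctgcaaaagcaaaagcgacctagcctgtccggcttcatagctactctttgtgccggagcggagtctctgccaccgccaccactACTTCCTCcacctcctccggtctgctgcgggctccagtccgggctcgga

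The letters searched, on both strands, were CTTTGAT and CTTTGAA for TCF/LEF factors and GAGGAAGT for PU.1. CTTTGAT is present in 3.73% of 32851 RefSeq promoter windows of this length, CTTTGAA in 5.14% and GAGGAAGT in 3.2%. None of the 9 member windows held a TCF/LEF word. The PU.1 word was found once, in the Fzd1 window on the opposite strand, as ACTTCCTC, directly beside the RefSeq start. That start lies upstream of the first base of Fzd1 in the GENCODE annotation that was used for lengths. These are matches of letters and not measured binding sites.

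The libraries held 20550252 to 24310144 counts, except that of control mouse 1 with 69283842. Levels are in CPM, the count scaled to the size of the library. Spi1 itself was at 24.3, 6.35 and 26.7 CPM in the control mice and at 3.20, 1.22 and 4.17 in the aPU.1KO mice. Its log2 fold change was -2.75, with an edgeR adjusted p of 0.0788 and a DESeq2 adjusted p of 0.00012. Counts are per gene, so reads from Spi1 exons outside the deleted part are still counted. The 12 adipocyte markers summed to 30685 to 33626 CPM in control and 37032 to 43672 CPM in aPU.1KO mice, which fits the labelled cell type. Markers of other cell types were counted as well. The 12 macrophage markers summed to 1514, 455 and 1468 CPM in the control mice and 325, 237 and 303 CPM in the aPU.1KO mice, and 11 of the 12 were lower at an unadjusted p under 0.05. The 12 progenitor and fibroblast markers summed to 1854, 1392 and 1686 CPM against 775, 832 and 1092 CPM, and 8 of the 12 were lower at that level. Each gene of these 2 lists was counted in every library. Of all genes tested, 13.7% were lower and 11.9% higher at that level. Of the 12 adipocyte markers, 9 were higher and 1 was lower. All 7 hepatocyte markers were lower, as were 2 of 10 endothelial and 3 of 8 mural markers. No tested mesothelial or lymphocyte marker passed that level. Endothelial markers spanned 638 to 909 CPM in control and 382 to 820 CPM in aPU.1KO mice, mural markers 980 to 1344 and 931 to 1107 CPM, and mesothelial markers 5.31 to 20.8 and 7.17 to 9.13 CPM. Lymphocyte markers were at 4.73 to 7.10 and 2.85 to 4.69 CPM, and hepatocyte markers at 41.1 to 63.6 and 18.7 to 24.7 CPM. The mitochondrial share of counts was 4.34% to 5.40% in control and 5.10% to 9.38% in aPU.1KO mice, with aPU.1KO mouse 2 the highest. The 10 immediate early genes, which respond to tissue handling, were also highest in that mouse, at 7188 CPM against 2565 to 4608 CPM in the other 5. In such bulk libraries, fewer cells of a type and less RNA per cell cannot be told apart.

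None of the 10 genes passed an adjusted p of 0.05 in edgeR, a test that 0.237% of the 13925 genes passed. The 2 genes in which the libraries of the groups did not overlap were Tcf7l2, 1.32-fold higher in the aPU.1KO mice, and Sfrp4, 2.08-fold lower. They were also the members at an unadjusted p under 0.05, 1 in each direction, where 11.9% of all genes were higher and 13.7% lower. By DESeq2, which called 13.4% of genes at an adjusted p of 0.05, Tcf7l2 passed and the other 9 did not. Of all genes tested, 32.1% had groups that did not overlap, so 2 of 10 was not more than the background. All 5 antagonists had negative fold changes, while the log2 fold changes of Fzd1, Fzd4 and Ctnnb1 lay between -0.18 and 0.04. Over the 10 genes the median log2 fold change was -0.24, with 7 below 0, beside 0.01 and 48.0% below 0 over all genes tested.

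**Figure D1:**
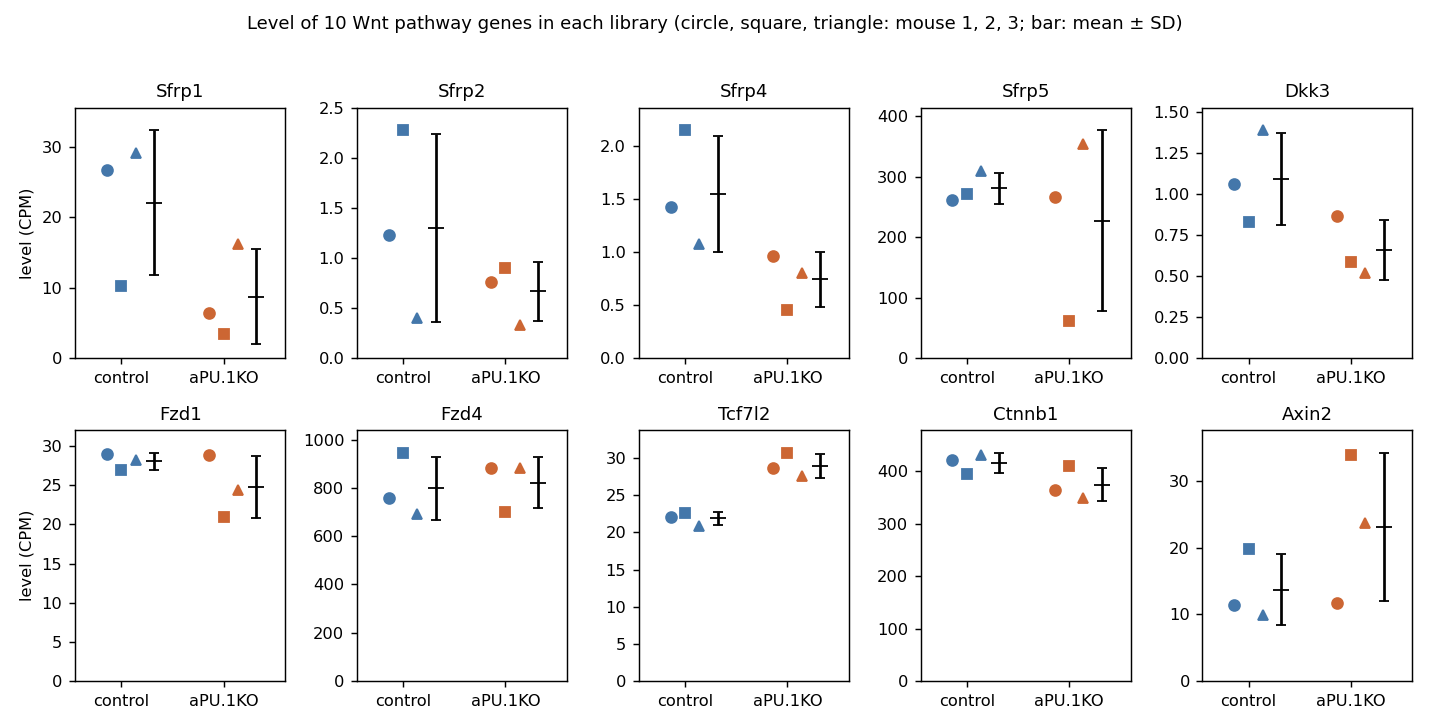
Level of each of the 10 genes, in CPM on a linear axis from 0, in 3 control (blue) and 3 aPU.1KO (orange) mice, where the marker shape gives the mouse number and the bar the mean ± SD. Tcf7l2 and Sfrp4 are the 2 genes whose groups do not overlap, and aPU.1KO mouse 2 stands low for Sfrp5, at 61.9 CPM, and high for Axin2, at 33.9 CPM.

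Among the secreted antagonists, Sfrp1 (chr8:23411502-23449632), which binds Wnts in the extracellular space, was at 26.8, 10.3 and 29.2 CPM in the control mice and at 6.45, 3.39 and 16.3 CPM in the aPU.1KO mice. The control mice 1 and 3 were above all others, but control mouse 2 lay below aPU.1KO mouse 3, so the groups overlapped. The mean was 22.1 ± 10.3 CPM in control mice and 8.71 ± 6.74 CPM in the aPU.1KO group (SD, n = 3 each). The log2 fold change was -1.35 ± 0.61 (SE), an edgeR fold of 0.393 with a 95% interval of 0.143 to 1.08, and the adjusted p was 0.222. The interval thus reached from a strong reduction to no difference. Without aPU.1KO mouse 3 the log2 fold change was -2.17 with an edgeR adjusted p of 0.0955, and without aPU.1KO mouse 2 it was -0.97. Spi1 ranked the 6 mice in the same order but for control mouse 2 and aPU.1KO mouse 3, which changed places, and control mouse 2 was also the lowest control mouse in the summed macrophage markers. The progenitor sums also had control mouse 2 as the lowest of the controls and aPU.1KO mouse 3 as the highest of its group. The part of these cells in the Sfrp1 values was not tested.

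**Figure D2:**
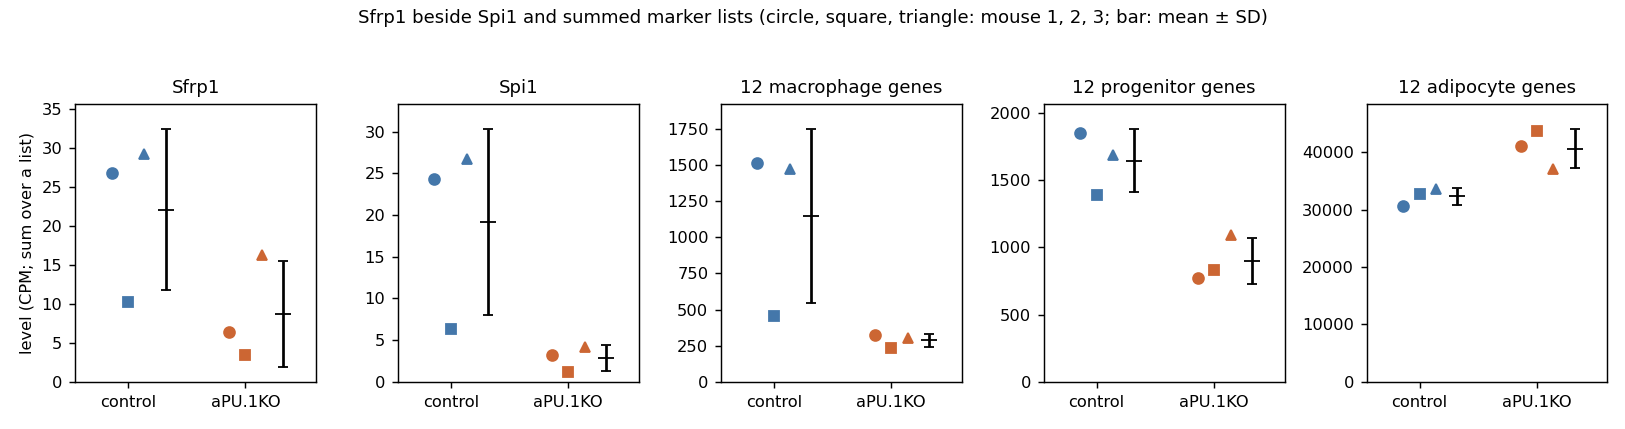
Sfrp1 beside Spi1 and the summed levels of 12 macrophage, 12 progenitor and fibroblast and 12 adipocyte markers, in CPM on linear axes from 0, in the same 6 mice (marker shape gives the mouse number, bar the mean ± SD). Control mouse 2 (square) is the lowest control mouse for Sfrp1, at 10.3 CPM, for Spi1, at 6.35 CPM, and for the macrophage and progenitor sums, at 455 and 1392 CPM.

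Sfrp4 (chr13:19623104-19632994), another SFRP that is expressed in fat and bone, was at 1.42, 2.14 and 1.07 CPM in the control mice and 0.966, 0.452 and 0.805 CPM in the aPU.1KO mice. No aPU.1KO mouse reached the lowest control mouse, although the nearest pair, control mouse 3 and aPU.1KO mouse 1, stood only 0.105 CPM apart. These levels rest on 103, 49 and 27 counts in the control libraries and on 19, 10 and 17 in the aPU.1KO libraries. In edgeR its log2 fold change was -1.05 ± 0.41 (SE), the fold interval 0.246 to 0.941, the unadjusted p 0.0366 and the edgeR adjusted p 0.168. The unadjusted p was above 0.05 when control mouse 1 or 2 or aPU.1KO mouse 2 or 3 was left out, and was highest, at 0.111, without control mouse 2. The summed progenitor and fibroblast markers were likewise lower in all aPU.1KO mice, at 775 to 1092 CPM against 1392 to 1854 CPM, and their part in Sfrp4 was not tested.

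Sfrp2 (chr3:83766321-83774316), also a Wnt-binding antagonist, was at 1.23, 2.28 and 0.397 CPM in control mice and at 0.762, 0.904 and 0.332 CPM in the aPU.1KO group. The control mice differed 5.74-fold among themselves, and all aPU.1KO values lay within or below their range. Its log2 fold change was -0.95 ± 0.66 (SE), with an edgeR adjusted p of 0.404. It was -0.36 without control mouse 2 and -1.37 without control mouse 3, at edgeR adjusted p of 0.751 and 0.273. Exons of the antisense gene Gm26771 cover 347 bases of Sfrp2. The counting was not stated to use strand, so reads there cannot be assigned to either gene. Dkk3 (chr7:112116017-112159057), a divergent member of the Dickkopf family of secreted proteins, was at 1.06, 0.832 and 1.39 CPM in control mice and at 0.864, 0.588 and 0.521 CPM in the aPU.1KO group. Only aPU.1KO mouse 1 and control mouse 2 were out of order. Its log2 fold change was -0.74 ± 0.35 (SE), with an edgeR adjusted p of 0.236 and 11 to 77 counts in a library.

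Sfrp5 (chr19:42197971-42202252) was the abundant antagonist, at 261.9, 270.7 and 309.4 CPM in the control mice and at 266.2, 61.9 and 353.4 CPM in the aPU.1KO mice. The aPU.1KO mice 1 and 3 were at or above the lowest control values and aPU.1KO mouse 2 was far below it, so that the aPU.1KO mice differed 5.71-fold among themselves and the control mice 1.18-fold. The log2 fold change of -0.31 ± 0.54 (SE, edgeR adjusted p = 0.753) turned to 0.14 without aPU.1KO mouse 2. The interval of the fold, 0.332 to 1.97, leaves room for a change in either direction. The mouse with the low Sfrp5 value was the one with the highest mitochondrial share and immediate early sum, whose part was not tested, while its adipocyte markers summed to 43672 CPM, the highest of the 6. Of these 12 markers Lep, which encodes leptin and is named here after its values were seen, went the other way, at 1565 CPM in this mouse, the lowest of the 6, and 2855 to 5029 CPM in the others.

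Per length of merged exons, Sfrp5 reached 147.7 ± 13.3 CPM per kilobase in control mice, against 5.05 ± 2.35 for Sfrp1, 0.604 ± 0.438 for Sfrp2 and 0.370 ± 0.131 for Sfrp4 (SD, n = 3). It made up 95.1% to 98.5% of the SFRP level in every library. The ratio of Sfrp5 to Sfrp1, per kilobase, was 22.5, 60.6 and 24.4 in the control mice and 94.9, 42.0 and 49.9 in the aPU.1KO mice, so the groups overlapped in this ratio. The other secreted antagonists on the list were scarce. Wif1, which binds Wnts through its own domain, was the only other one tested and was at 1.75 ± 0.72 CPM in control mice and 0.907 ± 0.842 CPM in the aPU.1KO group (log2 fold change -0.97, edgeR adjusted p = 0.504). Without aPU.1KO mouse 1 that value was -1.84, and without aPU.1KO mouse 2, which had 1 count, it was -0.40. The remaining 8 of 14, among them Frzb, Dkk1 and Dkk2, did not pass the filter, with at most 24 counts in a library for Dkk2 and 9 for Dkk1. All 6 antagonists that were tested had negative fold changes, with a median of -0.96 on the log2 scale, where 48.0% of all genes tested were below 0 with a median of 0.01. Of these 6, Sfrp4 alone was lower at an unadjusted p under 0.05, a level reached by 13.7% of all genes, so this count was near the background.

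**Figure D3:**
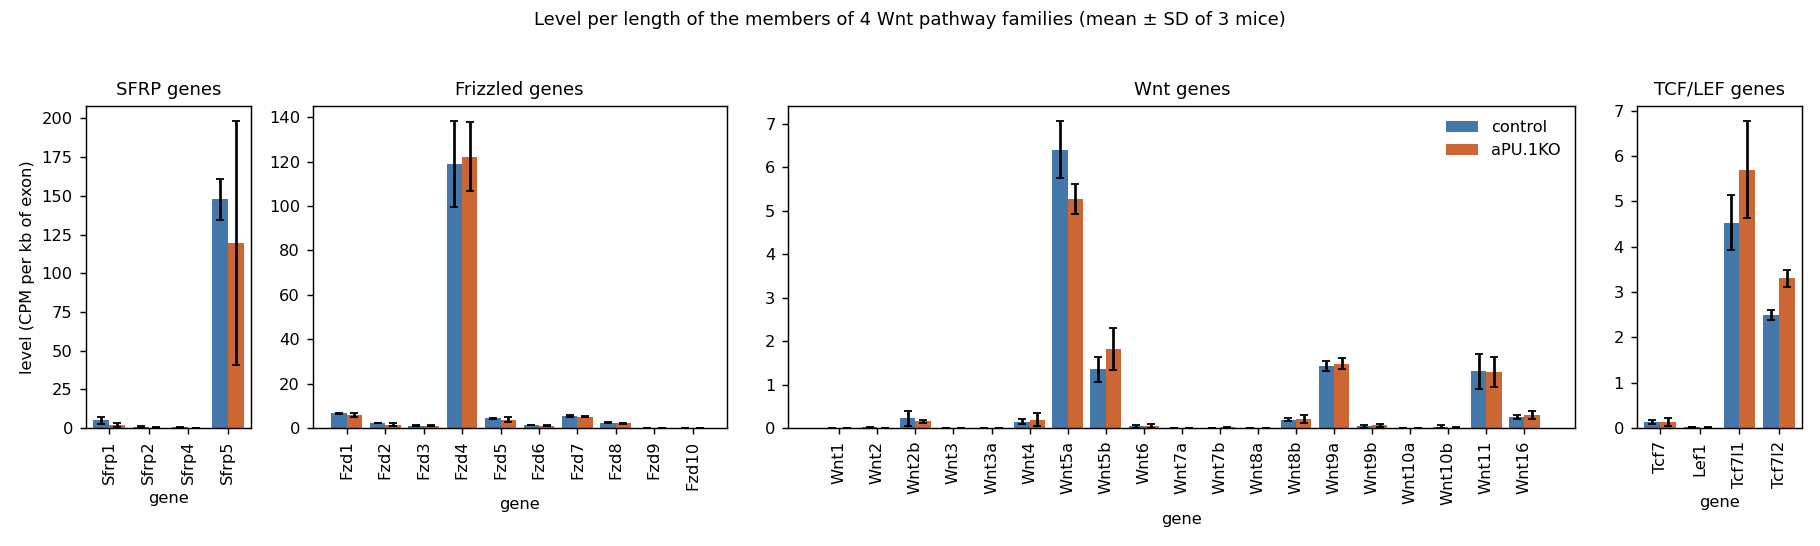
Level per length, in CPM per kilobase of merged exons on linear axes from 0, of the 4 SFRP, 10 Frizzled, 19 Wnt and 4 TCF/LEF genes in control (blue) and aPU.1KO (orange) mice, as mean ± SD of 3 mice. Sfrp5 and Fzd4 stand far above the rest of their families, Wnt5a leads the Wnts at 6.40 CPM per kilobase in control mice, and Tcf7l1 and Tcf7l2 make up nearly all of the TCF/LEF level.

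Of the receptors, Fzd4 (chr7:89404355-89413134), a Frizzled that also serves as the receptor for Norrin, was at 757, 945 and 694 CPM in control mice and at 881, 700 and 884 CPM in the aPU.1KO group. The groups overlapped throughout and the means were 799 ± 131 and 822 ± 105 CPM (SD, n = 3). The fold of 1.03 had an interval of 0.795 to 1.33 (edgeR adjusted p = 0.890), so larger changes in either direction lay outside it. Fzd4 took 81.3% to 87.0% of the summed level per kilobase of the 10 Frizzled genes. Fzd1 (chr5:4753839-4758035), the second Frizzled by level per kilobase in control mice, was at 29.0, 26.9 and 28.2 CPM in control mice and at 28.9, 20.9 and 24.4 CPM in the aPU.1KO group. The aPU.1KO mice 2 and 3 were below all control mice and aPU.1KO mouse 1 was not. Its log2 fold change was -0.18 ± 0.13 (SE), with an edgeR adjusted p of 0.404 and a fold interval of 0.715 to 1.09.

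Beta-catenin, the product of Ctnnb1 (chr9:120929216-120960507), links cadherins at the membrane and carries the canonical Wnt signal to the nucleus. Its RNA was at 422.5, 395.3 and 431.0 CPM in control mice and at 364.2, 410.5 and 350.1 CPM in the aPU.1KO group. The aPU.1KO mice 1 and 3 were below all control mice, but mouse 2 lay between control mice 1 and 2. The fold was 0.901 with an interval of 0.770 to 1.05 (edgeR adjusted p = 0.357). The signal through beta-catenin is set by the stability of the protein, which these data do not measure. Exons of Ulk4, on the other strand, cover 759 bases of Ctnnb1, and those of Mir7090 cover 23.

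Tcf7l2 (chr19:55741820-55933654), a TCF/LEF factor that binds beta-catenin on DNA, was at 22.1, 22.7 and 20.9 CPM in the control mice and at 28.7, 30.7 and 27.6 CPM in the aPU.1KO mice. The groups were tight and apart: the lowest aPU.1KO mouse was 4.89 CPM above the highest control mouse, and within a group the mice differed by 1.08-fold and 1.11-fold. The means were 21.9 ± 0.91 and 29.0 ± 1.59 CPM (SD, n = 3). Tcf7l2 had a log2 fold change of 0.40 ± 0.08 (SE), a fold of 1.32 with an interval of 1.15 to 1.52, at an unadjusted p of 0.0022, an edgeR adjusted p of 0.0768 and a DESeq2 adjusted p of 0.0045. At the looser adjusted p of 0.1 in edgeR it was the only member called, where 3.09% of all genes were called higher. The unadjusted p was under 0.05 in each of the 14 alternatives, and the adjusted p ranged from 0.0045 by DESeq2 to 0.317 by edgeR without control mouse 1, the deepest library. An exact permutation test of 3 mice against 3 cannot go below a two-sided p of 0.1, which is the value that groups without overlap give. The adipocyte marker sums also had groups that did not overlap, at 37032 to 43672 CPM in aPU.1KO and 30685 to 33626 CPM in control mice, and their part in the Tcf7l2 values was not tested. Counts per gene do not show which of the starts printed above was used.

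**Figure D4:**
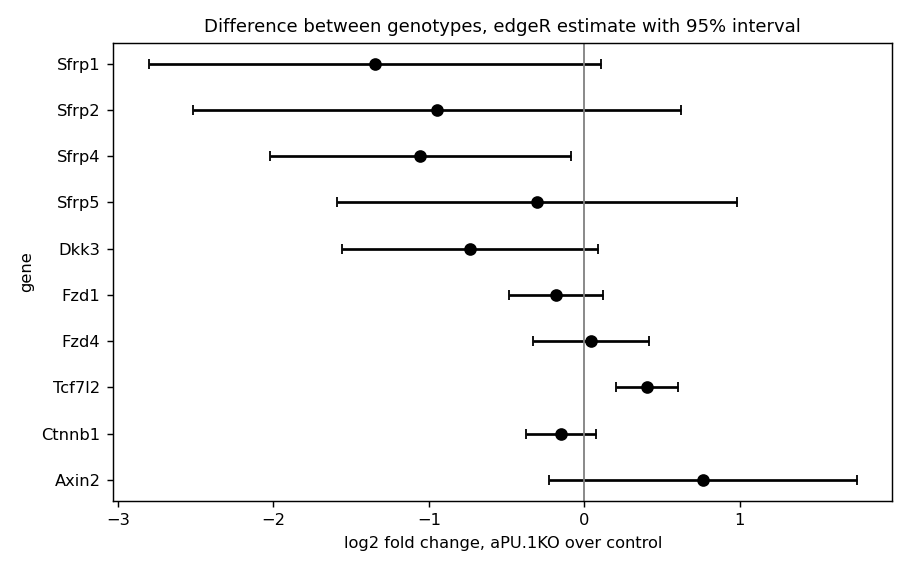
The log2 fold change of aPU.1KO over control mice for each of the 10 genes (points, edgeR), with its 95% interval from the moderated fit over all genes (bars) and a line at no change. Tcf7l2, at 0.40, and Sfrp4, at -1.05, have intervals that leave out 0, and the intervals of Sfrp1, Sfrp2 and Sfrp5 are the widest.

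Axin2 (chr11:108920349-108950783) encodes a scaffold of the beta-catenin destruction complex and is a target of the pathway that it inhibits. It was at 11.4, 19.7 and 9.84 CPM in the control mice and at 11.7, 33.9 and 23.7 CPM in the aPU.1KO mice. The aPU.1KO mice 2 and 3 were above all control mice, while mouse 1 was at the level of control mouse 1. In edgeR the log2 fold change was 0.76 ± 0.42 (SE), a fold of 1.70 with an interval of 0.856 to 3.37 (edgeR adjusted p = 0.295). It fell to 0.38 without aPU.1KO mouse 2 and reached 1.10 without control mouse 2. Both of the mice numbered 2, which were the highest of their groups in Axin2, were also the highest of their groups in the summed immediate early genes, at 3872 and 7188 CPM, whose part was not tested. Exons of the antisense gene Gm11670 cover 209 bases of Axin2.

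Ordered by level per kilobase of merged exons in control mice, the 10 genes ran Sfrp5 (148), Fzd4 (119), Ctnnb1 (80.2), Fzd1 (6.68), Sfrp1 (5.05), Tcf7l2 (2.50), Axin2 (2.48), Sfrp2 (0.604), Sfrp4 (0.370) and Dkk3 (0.326 CPM per kilobase). Neighbours whose control libraries did not overlap were Fzd4 and Ctnnb1, Ctnnb1 and Fzd1, and Axin2 and Sfrp2. The ranges of the other neighbours overlapped, although Sfrp5 was above Fzd4, and Fzd1 above Sfrp1, within each control mouse. Sfrp5, Fzd4 and Ctnnb1 thus stood far above Fzd1, Sfrp1, Tcf7l2 and Axin2, and Sfrp2, Sfrp4 and Dkk3 were lowest. With the longest transcript as the length, Ctnnb1 rose to 115 and Tcf7l2 to 5.90 CPM per kilobase. The control libraries of Fzd4 and Ctnnb1 then overlapped. The mean of Tcf7l2 then stood above that of Sfrp1, although their control libraries overlapped.

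The genes whose centred log2 CPM over the 6 mice came closest to that of Tcf7l2 were Mat2a, Mrps15 and Psmg1, with root mean square differences of 0.035, 0.038 and 0.038, against a median of 0.229 over 9611 genes with an average log2 CPM of at least 3. Those closest to Sfrp4 were Tnc, Csgalnact1 and Pcdh1, at 0.210, 0.213 and 0.267 against a median of 0.679.

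The 10 genes are part of a wider list of 93 genes of the pathway, of which 63 passed the filter and 14 had at most 3 counts in every library. At an unadjusted p under 0.05 in edgeR, 5 of the 63 were lower and 3 were higher, where 13.7% of all genes tested were lower and 11.9% higher, so neither count exceeded the background. None passed an adjusted p of 0.05 in edgeR. DESeq2 called 2 lower and 2 higher at that level, where 8.73% of all genes were called lower and 4.69% higher. The median log2 fold change was -0.01, with 33 genes below 0 and 30 above. The groups did not overlap for 8 of the 63 lower and 5 higher, where 15.5% and 16.7% of all genes did so. Without the members, 4 of 53 genes were lower at that unadjusted p and 2 were higher.

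**Figure D5:**
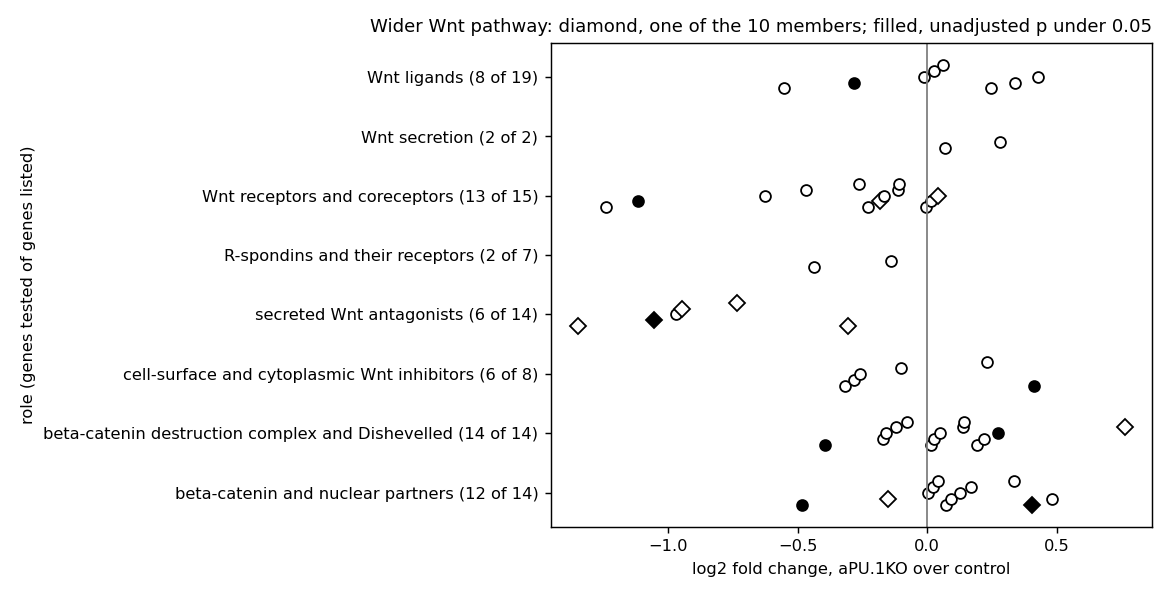
The log2 fold change of aPU.1KO over control mice (horizontal axis) for the 63 tested genes of the wider pathway list, grouped by role (vertical axis, with genes tested of genes listed), where diamonds are the 10 members and filled points have an unadjusted p under 0.05. The 6 tested secreted antagonists all lie below 0, from -1.35 to -0.31, while every other role with more than 2 genes tested has genes on both sides of 0.

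Of the 19 Wnt ligands, 8 were tested. Wnt5a, the ligand of the non-canonical branch that Sfrp5 is known to bind, was at 48.3, 46.1 and 55.9 CPM in control mice and at 41.5, 38.3 and 43.7 CPM in the aPU.1KO group. The groups did not overlap, and the log2 fold change was -0.28 ± 0.10 (SE) with an edgeR adjusted p of 0.141. Wnt5a made up 48.4% to 63.6% of the level per kilobase of all Wnts. Exons of the antisense gene Gm2670 cover 358 bases of it. Its near relative Wnt5b was at 3.58 and 4.82 CPM (log2 fold change 0.43, edgeR adjusted p = 0.349), and Wnt2b and Wnt16 were near 1 CPM with adjusted p of 0.622 and 0.664. Wnt1, Wnt3, Wnt3a, Wnt8a and Wnt10a had no count in any library, which does not exclude a very low level. Wnt10b, known for blocking fat cell formation, had at most 6 counts. Wls, which carries Wnts to the cell surface, and Porcn, which adds their lipid, had log2 fold changes of 0.07 and 0.28, with edgeR adjusted p of 0.652 and 0.242.

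Among 15 receptors and coreceptors, 13 were tested, 11 of them with a negative fold change, where 48.0% of all genes tested were below 0. At an unadjusted p under 0.05, 1 of the 13 was lower, where 13.7% of all genes were. In 4 of the 13 the groups did not overlap, all 4 lower, where 15.5% of all genes did so lower and 16.7% higher. Ror1, a receptor of the non-canonical branch, was at 3.16 ± 0.73 CPM in control mice and 1.46 ± 0.66 CPM in the aPU.1KO group, with no overlap between the groups (log2 fold change -1.12, edgeR adjusted p = 0.123, DESeq2 adjusted p = 0.0476). Its relative Ror2 was at 0.523 and 0.216 CPM (log2 fold change -1.24, edgeR adjusted p = 0.239), on 1 to 39 counts in a library. Its log2 fold change was -2.08 without aPU.1KO mouse 2 and -0.81 without aPU.1KO mouse 1. Ror2 passed the filter through the control libraries alone, at 39, 10 and 15 counts against 1, 9 and 4 in the aPU.1KO libraries. The filter thus favoured its negative sign, and it is among the 11 negative genes and the 4 without overlap. Fzd2 was at 8.22 and 5.33 CPM and Fzd6 at 6.88 and 4.96 CPM, with edgeR adjusted p of 0.245 and 0.286. The abundant coreceptors Lrp5 and Lrp6 and the receptor Ryk, with control means of 83.6 to 214 CPM, had log2 fold changes of -0.11, -0.17 and 0.02. Lgr4, the receptor of R-spondins, was at 95.6 and 86.8 CPM, and of the R-spondins only Rspo1 was tested, at 1.44 and 1.05 CPM, with edgeR adjusted p of 0.442 and 0.467.

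Of 8 inhibitors at the cell surface or in the cytoplasm, 6 were tested. Znrf3, a ubiquitin ligase that removes Frizzleds from the membrane and is itself a Wnt target, was at 11.1, 11.2 and 11.7 CPM in control mice and at 13.4, 15.8 and 16.1 CPM in the aPU.1KO group. All aPU.1KO mice were above all control mice, as for Tcf7l2, with a log2 fold change of 0.41 ± 0.11 (SE), an edgeR adjusted p of 0.098 and a DESeq2 adjusted p of 0.0353. Apcdd1, Kremen1 and Ctnnbip1 had log2 fold changes of 0.23, -0.10 and -0.26, with edgeR adjusted p of 0.308 to 0.588.

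All 14 genes of the destruction complex and Dishevelled group were tested. Btrc, which marks beta-catenin for degradation, was at 22.5 ± 1.15 CPM in control mice and 27.2 ± 0.52 CPM in the aPU.1KO group (log2 fold change 0.28, edgeR adjusted p = 0.105), with no overlap between the groups. Amer1, a partner of the complex at the membrane, was at 43.2 ± 1.48 and 32.9 ± 6.36 CPM (log2 fold change -0.39, edgeR adjusted p = 0.151), again with no overlap. The scaffold Apc and the kinases Gsk3a, Gsk3b and Csnk1a1 of the complex, Dvl1, which acts upstream of it, and the tankyrases Tnks and Tnks2, which promote the degradation of axin, had log2 fold changes between -0.17 and 0.19, and their edgeR adjusted p ran from 0.274 to 0.589.

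Of 14 genes for beta-catenin and its nuclear partners, 12 were tested. Tle4, a Groucho corepressor that TCF factors recruit, was at 15.6, 13.0 and 13.3 CPM in control mice and at 10.5, 9.76 and 9.80 CPM in the aPU.1KO group. It thus lay lower in all aPU.1KO mice, the opposite of Tcf7l2, with a log2 fold change of -0.48 ± 0.12 (SE), an edgeR adjusted p of 0.0862 and a DESeq2 adjusted p of 0.0118. Tcf7l1, the other abundant TCF/LEF gene, was at 17.8 and 22.4 CPM (log2 fold change 0.33, edgeR adjusted p = 0.261). Tcf7l2 made up 33.0% to 41.1% and Tcf7l1 57.1% to 65.6% of the TCF/LEF level per kilobase of merged exons, and with the longest transcript as the length 47.4% to 56.2% and 42.6% to 51.4%, so which of the pair is the more abundant depends on the length used. Tcf7 and Lef1 did not pass the filter, with at most 28 and 13 counts. The coactivators Pygo1 and Bcl9l and the corepressors Tle3 and Aes had log2 fold changes of 0.48, 0.09, 0.17 and 0.00, with edgeR adjusted p of 0.277 to 0.987.

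Axin2 was also read beside 12 other genes known as Wnt targets in various tissues, of which 5 were tested. Ccnd1, the cell cycle regulator cyclin D1, was at 27.3, 25.2 and 21.9 CPM in control mice and at 9.10, 14.7 and 13.1 CPM in the aPU.1KO group. Unlike Axin2 it was lower in every aPU.1KO mouse, with a log2 fold change of -1.01 ± 0.19 (SE), an edgeR adjusted p of 0.0729 and a DESeq2 adjusted p of 0.0001. Exons of LTO1, on the other strand, cover 1100 bases of Ccnd1. Znrf3, given above, was higher. Myc was at 12.7 ± 1.36 and 20.3 ± 15.9 CPM, and Nkd1, an inhibitor of Dishevelled, was at 50.1 ± 0.85 and 41.2 ± 20.4 CPM, so that in both the spread among aPU.1KO mice exceeded the difference, and their edgeR adjusted p were 0.553 and 0.623. Of the 6 target genes tested, Ccnd1 (lower) and Znrf3 (higher) thus had an unadjusted p under 0.05 and Axin2 did not, where 13.7% of all genes were lower and 11.9% higher, so 1 gene of 6 in each direction was near the background.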

How the data were processed

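RNA-sequencing libraries of 3 control and 3 aPU.1KO mice were grouped by the genotype in the labels. The authors quantified reads with Salmon against GRCm38 and summed transcripts to genes. The deposited values are estimated counts, already whole numbers, and Salmon's version, the library kit and its strandedness were not given in the sources used here. Of 35122 identifiers, 35102 matched GENCODE M21 symbols, and the rest held 0.0019% of counts. Counts were filtered (filterByExpr), scaled (TMM) and tested with edgeR 4.0.16 (R 4.3.3, quasi-likelihood test, Benjamini-Hochberg over 13925 genes). CPM use TMM-scaled library sizes. Intervals are at 95% with the moderated degrees of freedom and cover spread between mice. The code was tested on simulated data. DESeq2 1.42.0, the authors' tool, limma 3.58.1 voom, other scalings, filters and dispersion fits, thinning of the deepest library and leaving out each mouse were alternatives, 14 in all. Motifs were searched with Python 3.11.15. The members, gene lists and naming rule (the members, up to 4 genes with the smallest p per list and those over 50 CPM, and the 3 genes most like a member with an unadjusted p under 0.05) were chosen with earlier results of these data known. The labelled age is 10 to 11 months, whereas the study's text gives a higher one for the sequenced mice. A gene that the naming rule would give is not reported here.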

Additional observations from a re-analysis of the deposited data

How the results depend on the processing

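Depth limits Sfrp2, Sfrp4 and Dkk3 most, with 7 to 103 counts in a library, and 3 mice per group limit all values. No paired analysis was possible because the replicate numbers only follow the order of the records, and although the study used littermate controls, no source used here says which mice share a litter. Of 139 values of the 10 members under the alternatives, 133 kept their direction and their side of an adjusted p of 0.05. Tcf7l2 passed it by DESeq2 alone, and 5 turned direction. The cause was not tested in any case. Members at an adjusted p under 0.05 numbered 0 by edgeR and 1 by DESeq2, and genes of the wider list 0 and 4. Members lower at an unadjusted p under 0.05 numbered 1 in the main analysis and 2 with at least 10 counts in every library (Sfrp4 and Dkk3), with no filter, by DESeq2 and by limma-voom (Sfrp4 and Sfrp1 in each). Leaving out 1 mouse gave 0 (without control mouse 1) to 3 (without aPU.1KO mouse 1), and 1 to 2 members higher. For the wider list, limma-voom gave 8 lower and 5 higher, and leaving out 1 mouse gave 2 (without control mouse 1) to 7 lower and 2 to 8 (without control mouse 2) higher, where the main counts were 5 and 3. Of all genes at that level, 13.8% were lower with at least 10 counts in every library, 11.9% with no filter and 14.9% by DESeq2. For limma-voom 14.5% were lower and 12.3% higher, and leaving out 1 mouse gave 8.1% to 15.1% lower and 4.15% to 13.3% higher. Over all genes, the number at an adjusted p under 0.05 was 33 in the main analysis, 5 with at least 10 counts in every library, 146 with no filter, 1869 by DESeq2 and 0 to 1193 with 1 mouse left out, the highest without control mouse 2. With 1 mouse left out, log2 fold changes that turned direction spanned -0.77 to 0.14 for Sfrp5, -0.0548 to 0.17 for Fzd4, -1.002 to 0.0645 for Wnt2b, -0.0498 to 0.38 for Wnt16, -0.0163 to 0.12 for Wls, -0.23 to 0.0281 for Lrp5, -0.0862 to 0.12 for Ryk, -0.0271 to 0.24 for Bcl9l, -0.0642 to 0.0695 for Aes, -0.0208 to 1.16 for Myc, -0.72 to 0.0087 for Nkd1, -0.19 to 0.0103 for Daam1, -0.0287 to 0.0613 for Twsg1, -0.61 to 0.13 for Gm47654 and -0.79 to 0.0113 for Dock8. Ryk also turned to -0.00585 with at least 10 counts and to -0.00103 with no filter. Aes turned to -0.0111 with RLE size factors, -0.0206 with at least 10 counts, -0.0159 with no filter, -0.0110 by DESeq2 and -0.0142 with control mouse 1 thinned. Of 903 values of 65 other named genes, 854 kept direction and side, 26 turned direction and 23 passed the threshold, 16 of these by DESeq2.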

Other observations

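Planar cell polarity genes, which act in a Wnt branch without beta-catenin, were read from a list of 12, of which 11 were tested. Dchs1, an atypical cadherin, was at 13.0, 15.5 and 10.4 CPM in control and at 4.22, 5.97 and 7.29 CPM in aPU.1KO mice, with a log2 fold change of -1.16 ± 0.24 (SE), an edgeR adjusted p of 0.0766 and a DESeq2 adjusted p of 0.0005. The Dishevelled partner Daam2 was at 8.92 ± 1.00 and 5.54 ± 1.53 CPM (edgeR adjusted p = 0.130, DESeq2 adjusted p = 0.0488) and Prickle2 at 9.04 ± 0.77 and 6.06 ± 1.50 CPM (edgeR adjusted p = 0.141). Celsr2, another atypical cadherin, was at 15.8 ± 1.59 and 22.5 ± 5.52 CPM (edgeR adjusted p = 0.148). In these 4 genes the groups did not overlap, which held for 32.1% of all genes tested. Daam1, more abundant than Daam2, was at 56.7 ± 1.16 and 53.3 ± 7.56 CPM (edgeR adjusted p = 0.652).

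Antagonists of BMP ligands, another family of secreted inhibitors, were read from a list of 11, of which 9 were tested. Nog, which encodes noggin, was at 4.65, 6.65 and 3.81 CPM in control and at 11.0, 10.1 and 10.3 CPM in aPU.1KO mice, with a log2 fold change of 1.06 ± 0.22 (SE), an edgeR adjusted p of 0.0764 and a DESeq2 adjusted p of 0.0006. Fstl1, a secreted protein related to follistatin, was at 184, 75.3 and 241 CPM in control and at 35.8, 30.8 and 62.0 CPM in aPU.1KO mice (log2 fold change -1.96, edgeR adjusted p = 0.0792, DESeq2 adjusted p = 0.0001). Its low value in control mouse 2 was shared by Sfrp1 and by the summed macrophage markers. Fst, Chrdl1 and Twsg1 had log2 fold changes of -0.88, 0.41 and 0.03, with edgeR adjusted p of 0.210, 0.244 and 0.835.

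Genes most like 3 more members across the 6 mice were named after the values were seen. Closest to Sfrp5, with its low value in aPU.1KO mouse 2, were Col12a1, Gm47654 and Dock8, at root mean square differences of 0.148, 0.160 and 0.164 on the log2 scale, against a median of 0.872 over 9611 genes. Closest to Sfrp1 were Lrrk1, Serping1 and Kcnab2, at 0.276, 0.284 and 0.290 against 1.12. Closest to Axin2 were Shisa2, Per3 and Slc2a3, at 0.110, 0.172 and 0.178 against 0.640.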
